A study of Mus musculus with 60 samples.

Results

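A set of 8 genes that mark fat cells, Adipoq, Cfd, Fabp4, Plin1, Lep, Retn, Cidec and Ucp1, were followed across lung, liver and forestomach of mice given benzo(ghi)perylene (BghiP), a polycyclic aromatic hydrocarbon. They are 8 of the 20018 named genes on the array. They were found through the RefSeq accession that the scanner files give for each probe, which yielded 9 probes, 1 per gene and a second for Cidec. The animals were male Muta Mouse, a transgenic strain used in mutation tests, about 10 weeks of age and housed singly. Vehicle controls (D0) received olive oil by gavage, and the other groups received BghiP in olive oil at 6.25 (D1), 12.5 (D2) or 25 (D3) mg/kg-bw/day, so that every group, D0 included, was given oil each day for 28 days. Each dose had 5 mice (mice 1 to 5 in D0, 6 to 10 in D1, 11 to 15 in D2 and 16 to 20 in D3), and lung, liver and forestomach were taken from each mouse 72 h after the final dose, which gave 60 arrays. RNA was extracted from random slices of each organ, and no mice were pooled.

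White fat cells store triglyceride in a single large lipid droplet and secrete hormones, the adipokines, into the blood. The droplet is coated by perilipin 1 (Plin1), which controls the access of lipases, and its growth depends on Cidec, which moves lipid between droplets. Fabp4 carries fatty acids in the cytoplasm of fat cells and is also made by macrophages and capillary endothelium. Adipoq (adiponectin), Retn (resistin), Lep (leptin) and Cfd (adipsin, the complement factor D protease) are secreted, and Ucp1, the proton channel that lets mitochondria make heat, defines brown and beige fat cells. Cidec also occurs in hepatocytes that store fat.

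The regions before the start sites are shown for 3 of the members that followed Retn in lung at r of 0.914 or more over 20 arrays (Adipoq, Cfd and Plin1) and for Lep, the member not detected in any tissue. Promoters of 7 of the 8 members were found in RefSeq sequence of GRCm38.p6, and Fabp4, which followed Retn in lung at r = 0.957, had no entry. Each run is the 250 bases before the start, 5′ to 3′ on the strand of the gene, and capitals mark a match to one of 4 motifs searched on both strands. These were CCAAT, the box TATAAA of start sites, the nuclear receptor half-site AGGTCA, and the palindrome TTGCGCAA bound by C/EBP factors. The positions are chr16:23146286-23146535 (+) for Adipoq, chr10:79890603-79890852 (+) for Cfd, chr7:79732777-79733026 (-) for Plin1 and chr6:29059971-29060220 (+) for Lep.
Adipoq: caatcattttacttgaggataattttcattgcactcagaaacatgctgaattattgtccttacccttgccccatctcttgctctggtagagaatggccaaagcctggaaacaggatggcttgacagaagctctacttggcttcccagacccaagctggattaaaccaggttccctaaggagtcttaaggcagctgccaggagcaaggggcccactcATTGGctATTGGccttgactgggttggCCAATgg
Cfd: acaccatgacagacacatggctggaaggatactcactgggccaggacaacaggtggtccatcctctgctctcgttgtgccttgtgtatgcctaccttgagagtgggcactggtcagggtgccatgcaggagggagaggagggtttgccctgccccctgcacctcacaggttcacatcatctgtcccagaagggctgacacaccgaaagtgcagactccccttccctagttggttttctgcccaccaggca
Plin1: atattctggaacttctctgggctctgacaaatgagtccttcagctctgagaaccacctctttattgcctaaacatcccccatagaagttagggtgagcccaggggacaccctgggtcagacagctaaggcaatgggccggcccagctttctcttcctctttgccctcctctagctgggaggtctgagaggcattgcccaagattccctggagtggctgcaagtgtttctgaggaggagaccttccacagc
Lep: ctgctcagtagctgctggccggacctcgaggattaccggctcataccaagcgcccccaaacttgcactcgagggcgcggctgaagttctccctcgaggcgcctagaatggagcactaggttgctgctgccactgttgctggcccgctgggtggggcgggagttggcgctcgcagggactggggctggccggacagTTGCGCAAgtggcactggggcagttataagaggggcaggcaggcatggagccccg
Adipoq held CCAAT 3 times, on the reverse strand 34 and 27 bases before the start and on the forward strand 7 bases before it, a motif present in 33.8% of all 32851 promoters of the same length. Lep held TTGCGCAA 55 bases before its start, present in 0.164% of promoters, and Ucp1 held AGGTCA 14 bases before its start, present in 14% of them. The windows of Cfd, Plin1, Retn and Cidec held none of the 4, TATAAA (12.4% of promoters) included, so that Adipoq, Cfd, Plin1 and Retn shared none of the 4 in this window. The GC content of the 4 windows was 48.8% (Adipoq), 57.6% (Cfd), 54% (Plin1) and 65.6% (Lep), beside a median of 52.4% over all promoters.

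The tissue labels were met by their defining markers. The lung epithelial list (Sftpc, Sftpa1, Scgb1a1, Ager) was higher in lung than in liver and forestomach for 4 of 4 genes, the hepatocyte list (Alb, Apoa1, Cyp2e1, Tat) higher in liver than in lung and forestomach for 4 of 4, and the squamous epithelium list (Krt13, Krt4, Trp63, Lor) higher in forestomach for 3 of 4. The share of probes well above background in Cy5 lay between 34.91% and 58.63% in lung, 36.27% and 48.31% in liver and 21.31% and 53.34% in forestomach. Among the listed markers of another tissue, the widest gaps to the second-highest array lay on 3 arrays. On the lung array of mouse 1 (D0) Krt4 stood at 6.58, next to 0.19 on the second-highest lung array, and all 4 skeletal muscle markers were at their highest there, with Acta1 at 6.90. On the lung array of mouse 20 (D3) all 4 hepatocyte markers were at their highest, with Alb at 5.08 next to 0.91 on the second-highest. On the forestomach array of mouse 2 (D0) all 4 lung epithelial markers were at their highest, with Sftpa1 at 6.48 next to 0.31. The forestomach array of mouse 15 (D2), with the largest share of probes above background in that tissue (53.34%), had 4 of 4 mesothelial, 3 of 4 hepatocyte and 3 of 4 skeletal muscle markers at their highest, and the lung array of mouse 5 (D0) had all 4 B cell markers at theirs. Hepatocyte markers were above background on further forestomach arrays, Apoa1 on 15 of 20 and Alb on 12 of 20. Apoa1 reached 7.04 in mouse 10 and 6.79 in mouse 9, and Sftpc stood at 4.35 in the forestomach of mouse 14. Counts of members called between tissues and of correlated pairs are given with and without the first 3 arrays named. The other arrays stay in, and the part of these markers in their values was not tested.

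All values below are log2 ratios of tissue RNA (Cy5) to a reference RNA pooled from 11 mouse cell lines (Cy3), so that 0 means equal signal and 1 means a 2-fold signal, and ratios of different probes are not set against each other. The ratios were computed from signals that include the background, so a gene dim in both channels sits near 0, and one seen in the reference alone, as Retn in liver (above background on 20 arrays in Cy3 and 0 in Cy5), sits below 0. In whole tissue, fewer fat cells and less RNA of these genes per fat cell cannot be told apart.

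Of the lipid droplet genes, Plin1 was well above background on 11 of 20 lung arrays, 6 of 20 forestomach arrays and 0 of 20 liver arrays. In lung it ran from -0.08 through a median of 0.39 to 3.61 (mean 0.84 ± 1.09, SD, n = 20), in forestomach from -0.15 through 0.24 to 4.60 (0.63 ± 1.08) and in liver from -0.20 through 0.03 to 0.20. In lung and forestomach the mean lay above the median, and in each of them the median itself lay above the highest liver value. Cidec was detected more widely, on 20 lung arrays, 16 forestomach arrays and 16 liver arrays. It ran from 1.44 through 3.11 to 4.58 in lung (3.34 ± 0.95), from -0.06 through 1.78 to 5.76 in forestomach (1.92 ± 1.49) and from 0.14 through 0.79 to 1.35 in liver (0.77 ± 0.33). No lung value of Cidec overlapped the liver values. The second Cidec probe was dimmer, above background on 13 lung, 4 forestomach and 0 liver arrays, and followed the first at r = 0.841 in lung and 0.876 in forestomach and at 0.0757 in liver (20 arrays each).

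Fabp4 was well above background on every array of every tissue and was highest in forestomach. Its ratio there ran from 4.75 through 6.12 to 7.67 (6.03 ± 0.85, n = 20), against 0.94 through 1.89 to 6.09 in lung (2.42 ± 1.39) and 1.70 through 2.24 to 2.94 in liver (2.23 ± 0.31). Forestomach and liver did not overlap, and lung reached the forestomach range only on the arrays of mice 8 (6.09) and 14 (4.96).

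Among the secreted products, Cfd had the widest range. It ran from 0.90 through 4.52 to 8.15 in lung (4.52 ± 2.14), a 152-fold span between mice, and from 0.06 through 3.21 to 8.80 in forestomach (3.53 ± 2.69), where the 5 lowest arrays were not above background. In liver it stayed between -0.06 and 0.71 (0.24 ± 0.19) and was above background on 7 of 20 arrays. Adipoq was above background on 13 lung arrays, 9 forestomach arrays and 0 liver arrays. In D0 the lung values of Adipoq in mice 1 to 5 were 1.61, -0.03, 0.08, 0.72 and 1.04, in D1 (mice 6 to 10) 1.67, 0.22, 4.84, 0.46 and -0.05, in D2 (mice 11 to 15) -0.14, 0.95, -0.28, 3.86 and 1.82, and in D3 (mice 16 to 20) 0.50, 0.55, 0.49, 0.27 and 3.64. A lone mouse in each BghiP group (8, 14 and 20) stood above 3 and no D0 mouse did, and the other BghiP mice, from -0.28 to 1.82, spanned the D0 range of -0.03 to 1.61. In forestomach the same gene read 1.22, 1.65, 0.79, -0.20 and 6.26 in D0, 2.29, 0.07, 0.03, 0.04 and 0.25 in D1, 3.47, -0.05, -0.03, 0.29 and 2.46 in D2, and 3.24, 1.44, 0.47, -0.01 and -0.12 in D3. Here the highest mouse was a control, mouse 5, and mice 11 and 16 followed.

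Retn was above background on 16 lung arrays, 9 forestomach arrays and 0 liver arrays, and had the same 3 highest mice as Adipoq in both tissues. Its 3 highest lung values were 3.63 in mouse 8, 3.45 in mouse 14 and 2.73 in mouse 20, over a median of 0.31, and its highest forestomach values were 4.93 in mouse 5, 3.23 in mouse 11 and 2.87 in mouse 16, over a median of 0.22. Lep, whose probe is spotted 10 times on the array, was not well above background on any of the 60 arrays and ran from 0.00 to 0.26 in lung, 0.08 to 0.41 in liver and 0.02 to 0.28 in forestomach. Its highest value within lung was that of mouse 8 and within forestomach that of mouse 5, the arrays that were highest for Adipoq, but no level can be read from signals at background. Ucp1 was above background on 3 lung arrays, 5 forestomach arrays and 0 liver arrays. It stood at 1.80 in the lung of mouse 1 and 1.60 in the lung of mouse 14, with every other lung array at 0.35 or lower, and at 2.62 in the forestomach of mouse 5 and 1.06 in that of mouse 15.

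**Figure D1:**
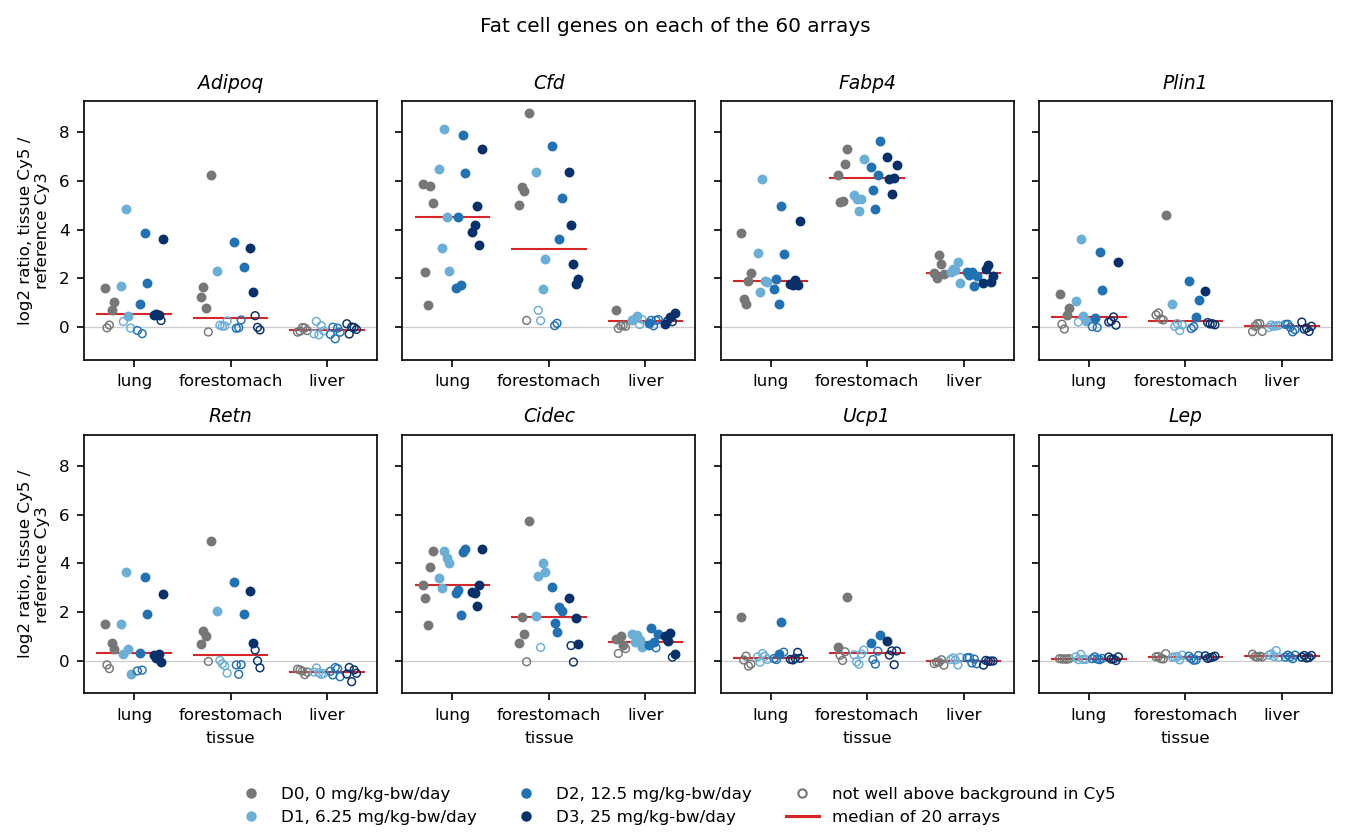
Log2 ratio (tissue Cy5 over reference Cy3) of each of the 8 genes on each of the 60 arrays, by tissue, with 1 point per mouse shaded by dose, open points for arrays not well above background and a red line at the median of 20 arrays. Liver values of Adipoq, Plin1 and Retn stay near or below 0, whereas in lung and forestomach a few mice lie far above the median, up to 4.84 and 6.26 for Adipoq.

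The tissues were compared in a linear model over all 60 arrays, each contrast being the mean over the 4 doses, and calls needed both an adjusted p no higher than 0.05 and a difference of 1.5-fold or more. A total of 7 members passed the filter for brightness in at least 1 tissue, and Lep was not tested. Adipoq, Plin1, Retn and Ucp1 passed it only through lung or forestomach, so their difference from liver was partly fixed by that filter and is given as a description. Of the 7, 5 were called between lung and liver, all higher in lung, where 45.7% of all 33255 probes tested were called. Of these 5, Adipoq, Plin1 and Retn had entered through the brighter tissue. A total of 6 were called between forestomach and liver, all higher in forestomach (39% of probes called), again with those 3 among them, and 2 between lung and forestomach (34.6% called), 1 in each direction. Only Cfd, Fabp4 and Cidec passed the filter in liver, and of these 3, 2 were called between lung and liver and 3 between forestomach and liver.

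Cfd differed most between lung and liver, at 4.28 ± 0.63 (log2 difference ± SE; adjusted p = 1.99e-08, limma with Benjamini-Hochberg adjustment), higher in lung in 20 of 20 mice and with no overlap between the tissues. Between forestomach and liver it differed by 3.28 ± 0.63 (adjusted p = 6.11e-06 in limma), higher in 18 of 20 mice. Liver Cfd was above background on 7 of 20 arrays. Both differences are thus taken against signals mostly at background and may understate the gap. Fabp4 was 3.80 ± 0.31 higher in forestomach than in liver (limma adjusted p = 2.25e-16), in 20 of 20 mice. Fabp4 also differed between lung and forestomach, with lung lower in 19 of 20 mice (lung minus forestomach -3.61 ± 0.31, limma adjusted p = 2.2e-15), while its lung and liver levels differed by 0.19 ± 0.31 (adjusted p = 0.573). Cidec followed the order lung, forestomach, liver, with each step called. Its differences were 2.57 ± 0.32 for lung against liver (limma adjusted p = 3.2e-10), 1.42 ± 0.32 for lung against forestomach (9.88e-05) and 1.15 ± 0.32 for forestomach against liver (0.00124). In the D0 arrays alone the differences with forestomach were of like size, 1.24 and 1.19, and neither passed (limma adjusted p = 0.103 and 0.111). With the mean of both Cidec probes in place of the brighter one the 3 differences were smaller, at 1.49, 0.78 and 0.71, and each was still called.

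For the genes not above background on any liver array only a bound of the fold can be given, the mean signal in the brighter tissue against the lowest signal that counts as above background in liver. Retn was at least 2.10-fold higher in lung and at least 2.27-fold higher in forestomach than in liver. Adipoq was at least 1.82-fold and at least 1.90-fold higher, and Plin1 at least 1.48-fold and at least 1.44-fold higher. Each bound compares means over 20 arrays and carries no error. A few high mice can carry it, so it is no floor for each mouse. The Plin1 call in forestomach was lost when mouse 5, 6, 11, 15 or 16 was left out (log2 difference 0.42, 0.59, 0.57, 0.60 and 0.58). Ucp1 differed between forestomach and liver by 0.44 ± 0.15, under the 1.5-fold set for a call and at least 1.10-fold as a bound. Lung and forestomach did not differ beyond their spread for Adipoq (-0.07 ± 0.41), Retn (-0.06 ± 0.36), Plin1 (0.21 ± 0.28), Ucp1 (-0.15 ± 0.15) and Cfd (0.99 ± 0.63, limma adjusted p = 0.147), though Cfd passed without mouse 11 (1.43, limma adjusted p = 0.0336) and turned to -1.10 in the D0 arrays alone (0.485), where Plin1 turned to -0.73 (0.288). With the processed signals of the scanner software Ucp1 was called, lower in lung than in forestomach (-1.21, limma adjusted p = 0.0123). Without the lung arrays of mice 1 and 20 and the forestomach array of mouse 2, 5, 6 and 2 members were called in the 3 contrasts, beside 45.5%, 39.1% and 34.6% of all probes. In the D0 arrays alone 2 (Cfd and Cidec), 5 (Adipoq, Cfd, Fabp4, Retn and Ucp1) and 1 (Fabp4) were, beside 44.4%, 39.2% and 33.2%, with Adipoq, Retn and Ucp1 again tested only through the brighter tissue. Liver arrays lay on slides of their own, so slide and tissue cannot be told apart in the contrasts with liver, whereas lung and forestomach shared slides.

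Within lung the members rose and fell together from mouse to mouse. Adipoq followed Plin1 at r = 0.989 (Spearman's rho 0.908), Retn at 0.978 (rho 0.946), Fabp4 at 0.971 (rho 0.905) and Cfd at 0.879 (rho 0.950) over 20 arrays, each with a permutation p of 1e-05, the smallest that 100000 resamples can give (adjusted 2.44e-05 over 39 relations in the 3 tissues). Cidec was the loosest member, at r = 0.659 with Adipoq (rho 0.711, permutation p = 0.00106, adjusted 0.00165). All 15 pairs of the 6 members detected in lung passed by r and by rho. After slide and dose means were taken out, r of the 15 pairs lay between 0.866 and 0.991. Cidec then followed Adipoq at 0.879, close to Cfd with Adipoq at 0.894. Without the 2 arrays farthest from the median, r of the 15 pairs lay between 0.596 and 0.973. The relation did not rest on the 3 highest arrays alone, since without mice 8, 14 and 20, 13 of 15 pairs still passed, with r from 0.509 to 0.952 over 17 arrays. Without the lung arrays of mice 1 and 20, which carried markers of other tissues, all 15 passed.

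**Figure D2:**
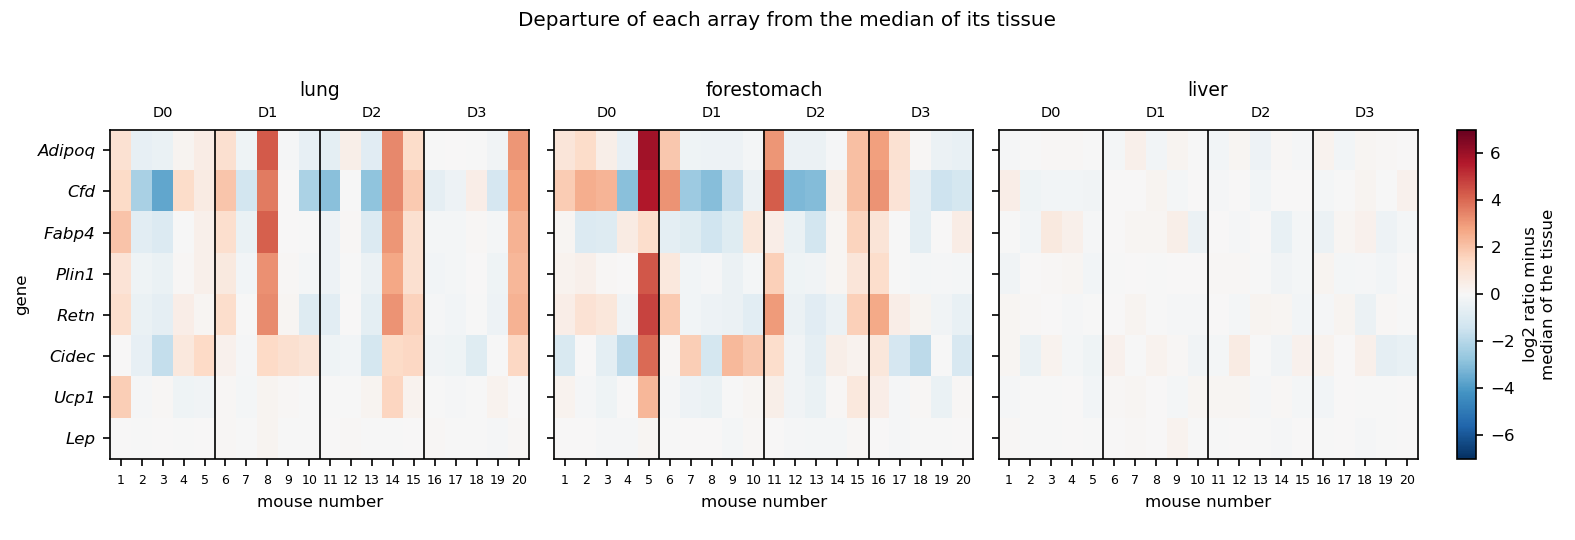
Log2 ratio of the 8 genes (rows) in each of the 20 mice (columns, in number order and so by dose group) minus the median of that gene in that tissue, red for above and blue for below, 1 panel per tissue. Red columns stand at mice 8, 14 and 20 in lung and at mice 5, 11 and 16 in forestomach, and liver stays close to its medians.

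In forestomach the secreted products and Plin1 again went together from mouse to mouse. Adipoq followed Retn at r = 0.982 (rho 0.875), Plin1 at 0.948 (rho 0.815) and Cfd at 0.879 (rho 0.920), each with a permutation p of 1e-05 (adjusted 2.44e-05). Fabp4, high on every forestomach array, followed Adipoq at r = 0.514 (rho 0.307, permutation p = 0.0176 and 0.188, adjusted 0.0221 and 0.222), and Cidec followed Adipoq at r = 0.556 (rho 0.430, permutation p = 0.0133 and 0.0603, adjusted 0.0173 and 0.084). Without the 2 arrays farthest from the median the relation of Cidec with Adipoq fell to r = 0.0982, whereas after slide and dose means were taken out it was 0.738 (rho 0.571, adjusted permutation p = 0.000452). Fabp4 went the other way, with r = 0.270 to Adipoq after slide and dose (adjusted permutation p = 0.295) and 0.352 to Ucp1 (0.16) in place of 0.705. Of 21 pairs in forestomach 18 passed by r and 10 by rho, 15 passed by r after slide and dose were taken out, 8 without the 3 highest arrays and 19 without the array of mouse 2. In liver none of the 3 pairs of detected members passed (r from -0.114 to 0.399).

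**Figure D3:**
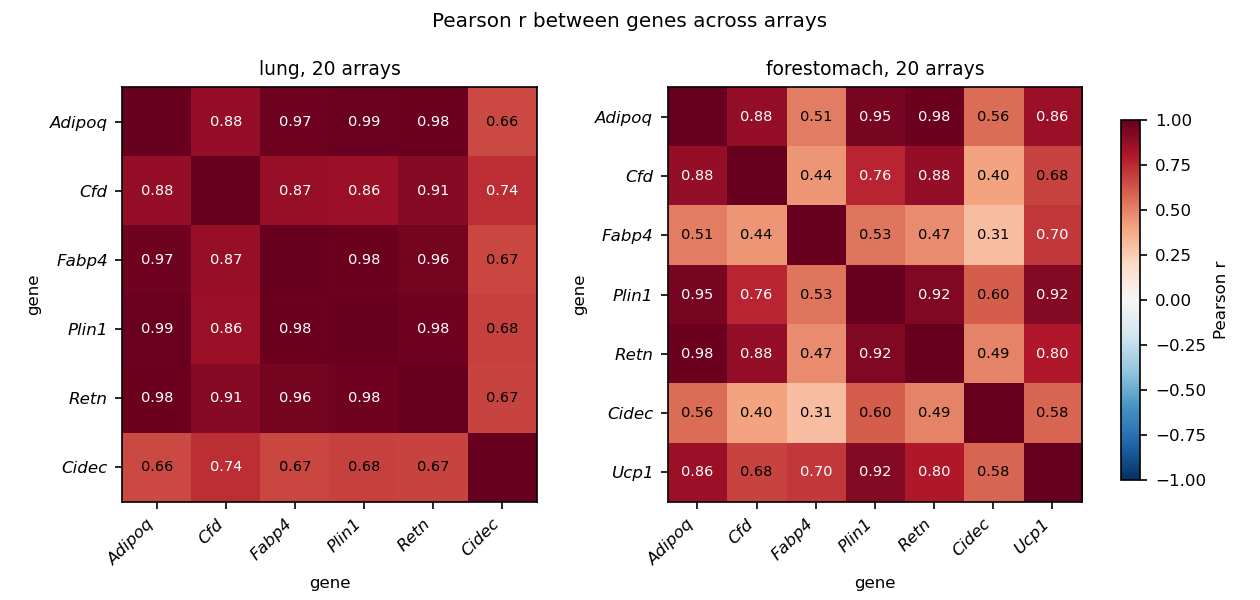
Pearson r between members over the 20 arrays of lung and of forestomach, for the members that passed the filter on brightness there (6 in lung and 7 in forestomach), with r printed in each cell. In lung every pair lies between 0.659 and 0.989, whereas in forestomach Fabp4 and Cidec follow Adipoq at 0.514 and 0.556.

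The level in one tissue of a mouse was not shown to follow that in another. Between lung and forestomach of the same mouse, Adipoq gave r = -0.144 (rho -0.0406, permutation p = 0.547 and 0.868, adjusted 0.656 and 0.868) and Cfd r = -0.145 (rho -0.12, permutation p = 0.543 and 0.615, adjusted 0.656 and 0.82), over 20 mice. None of the 12 relations between tissues passed after adjustment. The strongest was that of Cfd in lung and liver (r = 0.554, rho 0.538, permutation p = 0.0109 and 0.0153, adjusted 0.131 and 0.184), and Fabp4 in forestomach and liver gave r = -0.45 (rho -0.442, permutation p = 0.0465 and 0.0527, adjusted 0.279 and 0.316). Mouse 8, the highest in lung, had forestomach values of 0.03 for Adipoq and 0.26 for Cfd, and mouse 5, the highest in forestomach, had lung values of 1.04 and 5.11.

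The genes most like the members were found, in each tissue, by the correlation of each probe with the mean of the members after centring. In lung they were Thrsp, a regulator of fatty acid synthesis (r = 0.966, rho 0.910), Adig, adipogenin (0.957, rho 0.905), Car3, carbonic anhydrase 3 (0.926, rho 0.959), Aoc3, an amine oxidase (0.924, rho 0.871), and Mrap, the accessory protein of the corticotropin receptor (0.916, rho 0.826), among 18884 probes over 20 arrays. In forestomach they were Thrsp (0.984, rho 0.970), Mrap (0.944, rho 0.859), Mlxipl, a glucose-sensing transcription factor (0.889, rho 0.707), Adig (0.888, rho 0.687) and Acly, which makes acetyl-CoA for fat synthesis (0.860, rho 0.768), among 16831 probes. Of the 5 names, 3 (Thrsp, Adig and Mrap) were the same in lung and forestomach. Thrsp ran from 0.84 to 5.18 in lung, highest in mouse 8, and from 0.03 to 6.06 in forestomach, highest in mouse 5. In liver, where the mean held only Cfd, Fabp4 and Cidec, the list was Atpsckmt (0.851), Sec14l3 (0.845), Ccm2l (0.834), Tmem184b (0.832) and Tpp1 (0.832), none of them among the names from the other tissues.

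No member passed the test for a change with BghiP in any tissue. Each dose was compared with D0 within a tissue, over 6 members in lung, 3 in liver and 7 in forestomach, and 0 members were called in the 9 comparisons. None of their unadjusted p-values was under 0.05 either. Over all probes 0% were called in each of the 9 comparisons, with 378 to 3147 probes at an unadjusted p under 0.05. A limma t test with p-values from shuffled residuals also called 0. It stands in for the shrunken-variance F test that the methods name, which was not itself run. With slide as a block, 21 probes at D3 in lung and 24 at D3 in liver were called, no member among them, and Cfd, Fabp4 and Ucp1 at D1 in forestomach reached unadjusted p-values of 0.045, 0.0248 and 0.0494 (limma adjusted p = 0.266, 0.223 and 0.275).

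In lung the mean of every detected member was higher than D0 at every dose, by amounts that did not pass the test. The range over the 6 members was 0.58 to 0.96 at D1, 0.22 to 0.56 at D2 and 0.01 to 0.77 at D3, and the lowest adjusted p over the members and doses was 0.998 (limma). For Adipoq the group means were 0.68 ± 0.68 in D0, 1.43 ± 2.01 in D1, 1.24 ± 1.70 in D2 and 1.09 ± 1.43 in D3 (SD, n = 5). The differences depended much on 1 mouse per group. Without mouse 8 the D1 change of Adipoq went from 0.75 to -0.11, without mouse 14 the D2 change went from 0.56 to -0.10, and without mouse 20, whose lung array carried hepatocyte markers, the D3 change went from 0.41 to -0.23. Over the 6 members the changes ran from -0.11 to 0.55 at D1 without mouse 8, where Cidec stayed at 0.55 in place of 0.72, from -0.44 to -0.06 at D2 without mouse 14 and from -0.35 to 0.12 at D3 without mouse 20.

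In forestomach the differences from D0 were negative for 6, 5 and 6 of 7 members at D1, D2 and D3, again without passing the test. Without the control mouse 5 they were negative for 6, 1 and 2. Cfd read 5.08 ± 3.07 in D0, 2.34 ± 2.45 in D1, 3.32 ± 3.23 in D2 and 3.37 ± 1.92 in D3 (SD, n = 5), and its D1 change of -2.75 ± 1.59 (SE) had a limma adjusted p of 0.594. Without mouse 5 (8.80) the changes of Cfd went from -2.75, -1.77 and -1.71 to -1.82, -0.84 and -0.78, and the D1 change of Cidec from 0.85 to 1.82. Adipoq changed by -1.41, -0.71 and -0.94 at D1, D2 and D3, and without the control mouse 5 by -0.33, 0.37 and 0.14. In liver the changes of Cfd, Fabp4 and Cidec lay between -0.29 and 0.20 over the 3 doses, with a lowest limma adjusted p of 0.625. A slope on dose was called for 0 members in the 3 tissues, and for 0.239% of all probes in liver and 0% in lung and forestomach. In lung the slopes ran from -0.08 (Cidec) to 0.20 (Cfd) per 10 mg/kg-bw/day. The change at D3 differed between tissues for 0 of 7 members, as for 0% of 33255 probes (688 to 1416 at an unadjusted p under 0.05). The widest gap was that of Cfd, at 2.48 ± 1.77 between lung and forestomach, which was not called.

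**Figure D4:**
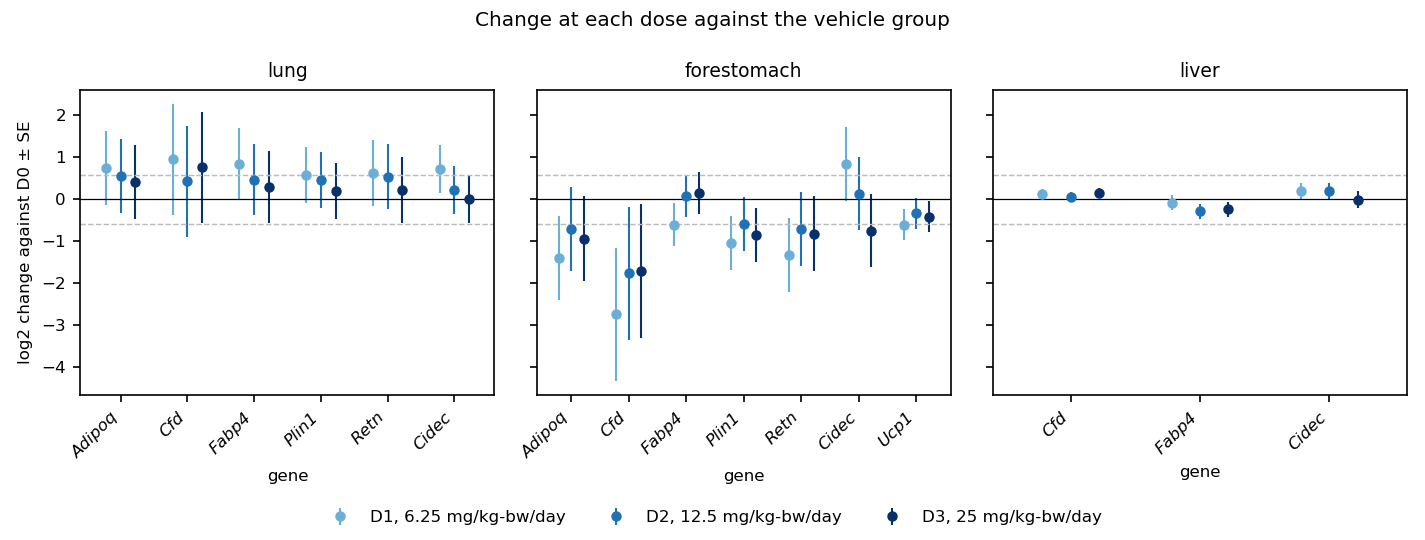
Log2 change against D0 of each detected member at D1, D2 and D3 in lung, forestomach and liver, with the standard error of the linear model as bars and dashed lines at 1.5-fold. None of the changes passed the test, and the one farthest from 0 is that of Cfd at D1 in forestomach, at -2.75 ± 1.59 (-1.82 without the control mouse 5).

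Forestomach Cidec showed a second kind of high array, described here after its values were seen. In D1 it read 1.84, 3.48, 0.54, 4.03 and 3.66 in mice 6 to 10, and in mice 7, 9 and 10 Adipoq was at 0.07, 0.04 and 0.25, not well above background. Mouse 5 had both genes high, at 5.76 for Cidec and 6.26 for Adipoq. Of the 19 storage genes above the filter in forestomach, 3 (Agpat2, Lpl and Pparg) were higher in all of mice 7, 9 and 10 than in mouse 5 and 13 were lower in all 3, among them Dgat2 (3.90, 3.46 and 5.18 against 5.89) and Thrsp (0.87, 0.85 and 1.87 against 6.06). Of the 9 heat-making genes, 3 were higher in all 3 mice (Fabp3, Cox7a1 and Ppargc1a) and 5 lower, among them Cox8b, a muscle and brown fat subunit of cytochrome oxidase (0.30, 0.69 and 2.12 against 5.34). The listed genes thus went both ways between these mice, more of them lower than higher. Fabp3, the fatty acid carrier of muscle and brown fat, stood at 4.06, 4.01 and 3.48 there against -1.46 in mouse 5. It was not high in these mice alone, since it ran from 1.48 to 4.06 in 10 mice (2, 3, 7 to 10, 12 to 14 and 19) and from -2.15 to -0.12 in the other 10, and Cox7a1 was between 1.44 and 3.48 in the same 10 mice and between -2.02 and -0.64 in the rest. These 10 mice come from all 4 dose groups, and Cidec ran low in some of them, as in mouse 8 (0.54) and mouse 13 (1.16). The hepatocyte marker Apoa1 was highest in the forestomach of mice 10 (7.04) and 9 (6.79), and its part in these values was not tested.

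**Figure D5:**
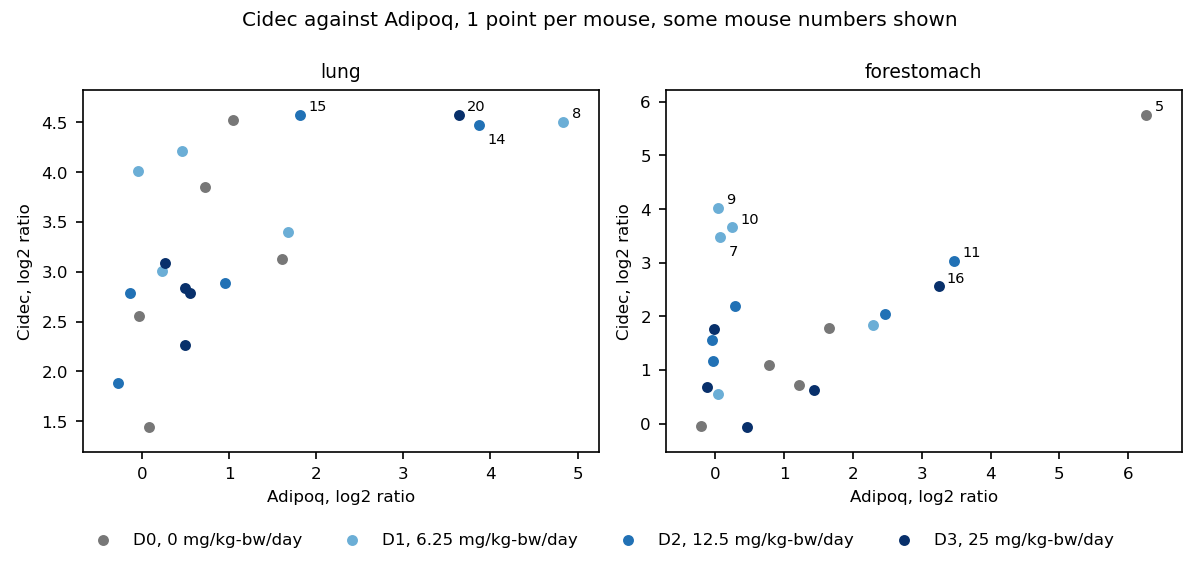
Cidec against Adipoq, both as log2 ratio (Cy5/Cy3), 1 point per array in lung and in forestomach, with mouse numbers beside the high arrays. In lung the 2 genes climb together, while in forestomach mice 7, 9 and 10 lie high on Cidec (3.48, 4.03 and 3.66) with Adipoq near 0.

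The other genes of fat cells were taken as 3 lists, of fat storage and its control (20 genes), of heat-making fat (12 genes) and of adipokine receptors (4 genes). The storage list was called in both directions, in contrasts that called 45.7%, 39% and 34.6% of all probes. Between lung and liver 7 of 20 were higher in lung and 8 higher in liver (median difference 0.12, over all probes 0.06), between forestomach and liver likewise 7 and 8 (median -0.23, all probes 0.02), and between lung and forestomach 6 and 6 (median -0.16, all probes 0.01). Among the genes that passed the filter in both tissues compared, these were 7 and 8 of 19, 6 and 8 of 18, and 5 and 5 of 18. The direction of the other calls was partly fixed by the filter. Several genes of this list that were higher in liver are also known to act in hepatocytes. Pck1, the gatekeeper of glucose synthesis, was lower than in liver in lung (-8.68, above background on 6 of 20 lung arrays) and in forestomach (-8.46, on 7 of 20), and Car3 likewise (-6.11 and -5.59). Dgat2, which makes triglyceride, was lower in lung than in liver (-6.11) and than in forestomach (-5.17), the glucose transporter Slc2a4 was lower in lung than in forestomach (-3.67), and the fatty acid receptor Cd36 was higher in lung than in forestomach (3.47). Elovl3, a fatty acid elongase of brown fat and liver, was -5.64 in forestomach against liver, with 3 of 20 forestomach arrays above background. Each of these differences was called, and those of Pck1 and Elovl3, taken against signals mostly at background, understate the gap.

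Of the heat-making list 9 of 12 genes were higher in lung than in liver and 3 lower, 7 were higher and 3 lower in forestomach than in liver, and 5 were higher and 1 lower in lung than in forestomach (medians 1.93, 1.19 and 0.16), beside the same shares of all probes called. Most of the genes higher than in liver had passed the filter through lung or forestomach alone, so that their direction was partly fixed by it. Among the 4 that passed in both tissues, Cox7a1 and Fabp3 were higher and Ppargc1a and Zic1 lower than in liver, in lung and in forestomach alike. Between lung and forestomach 9 genes passed in both. Of these, 3 were higher in lung (Cox8b, Kcnk3 and Slc36a2) and 1 lower (Cidea), and the other calls had entered through lung. Of the 4 adipokine receptors (Lepr, Adipor1, Adipor2 and Cdh13) 1 was higher and 1 lower in each of lung and forestomach against liver, and 1 was higher in lung than in forestomach. In the 9 dose comparisons 0 genes of the 3 lists were called. The largest changes at D3 were those of Pck1 (0.52) and Npr3, a natriuretic peptide receptor (-0.45), in lung, of Lpl (1.12) and Adrb3, the fat cell adrenergic receptor (0.78), in liver, and of Car3 (-1.86) and Pck1 (-1.17) in forestomach. The Pck1 change in lung rested on mouse 20, whose array carried hepatocyte markers (4.12, other D3 mice -0.03 to 0.25), and was -0.28 without it. Npr3 in lung was -0.11 without the control mouse 2, and Pck1 in forestomach -0.11 without the control mouse 5. Of these 6, Adrb3 in liver was the one whose 5 D3 mice all lay above the D0 mice (unadjusted p = 0.00451, limma adjusted p = 0.221).

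Markers of other cell types were set beside the members on the same arrays. Over the 20 lung arrays the mean of the storage list followed the mean of the members at r = 0.949 (rho 0.899) and that of the heat-making list at 0.583 (rho 0.546), and the other lists lay between -0.256 (rho -0.217, pancreatic acinar cell) and 0.586 (rho 0.750, hepatocyte), lists of which 2 of 4 genes passed the filter. In forestomach the storage list followed at r = 0.852 and the heat-making list at 0.0551, with the other lists from -0.474 (B cell, 1 of 4 genes passed) to 0.457 (endothelium, 3 of 4). These are descriptions of arrays that share slide and dose and carry no test. On the highest lung array, mouse 8, no list of another cell type had more than 1 of its 4 genes at its highest, and the same held for mouse 14. On the array of mouse 20 all 4 hepatocyte markers and 2 of 4 heart muscle markers (Myh6 at 7.11, next to 7.08 on the second-highest array, and Myl7 at 5.81, next to 5.47) were at their highest, and their part in the values of that array was not tested.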

How the data were processed

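The deposited scanner files held, per the file headers (Feature Extraction 10.7.3.1), median and background signal intensity, processed intensity and flags per spot. The deposited value table gave log2 ratios that the authors had normalized by LOWESS. Here log2 ratios of median intensity without background subtraction were normalized by loess within arrays in limma 3.58.1 (R 4.3.3, data.table, version 1.17.8). Control spots (3671 of 62976) were left out, flagged spots (0.46% of values) were set to missing, and spots were averaged to 55681 probes, of which 47.4% had a symbol. The brightest probe stood for a gene. Probes whose Cy5 signal was well above background on 5 or more of the 20 arrays of a tissue were tested (31022 in lung, 25893 in liver, 25070 in forestomach) with limma, two-sided, Benjamini-Hochberg adjusted. The threshold was an adjusted p of 0.05 and 1.5-fold, and 0.05 alone for slopes on dose. Correlations had 100000 permutations. The deposited table correlated with these ratios at 0.992 to 0.999. The number of arrays limits precision. Named genes were the 8 members, the 5 genes most like them per tissue, and from the lists of storage, heat-making and receptor genes the 2 with the largest change at D3 and the 3 with the largest difference per pair of tissues. Further list genes are named outside this rule, in the descriptions of forestomach Cidec, of genes that passed in both tissues and of the heat-making genes. The members and lists were chosen with earlier results of these data known. Alternatives were background correction, processed signals, the deposited ratios, the filter, variance model, probe rule, slide and mouse as blocks, D0 alone, the t test with shuffled residuals, and leaving out each mouse. The code was tested on simulated data.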

Additional observations from a re-analysis of the deposited data

Results flagged for a closer look

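Each member was searched in each of the 12 groups of 5 mice for a lone value far from the other 4 (Dixon's test). Of 96 such groups, 18 held one, where 4.8 are expected by chance. The searches are not independent, since members rose and fell together and the same mice recur, so these counts carry no test. In lung they were mouse 20 in D3 for Adipoq (3.64, others 0.27 to 0.55), Fabp4 (4.35, others 1.73 to 1.95), Plin1 (2.69) and Retn (2.73), mouse 8 in D1 for Plin1 (3.61), and for Ucp1 mouse 1 in D0 (1.80), mouse 14 in D2 (1.60) and mouse 19 in D3 (0.34), where no D3 lung array was above background. In forestomach they were mouse 5 in D0 for Adipoq (6.26, others -0.20 to 1.65), Plin1 (4.60), Retn (4.93) and Ucp1 (2.62), mouse 6 in D1 for Adipoq (2.29), Plin1 (0.96) and Retn (2.05), and mouse 16 in D3 for Plin1 (1.47). In liver they were mouse 1 in D0 for Cfd (0.71) and mouse 16 in D3 for Ucp1 (-0.19), which was not above background on any liver array. The lung arrays of mice 1 and 20 also carried markers of other tissues, and the part of these in the values was not tested.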

How the results depend on the processing

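The number of members called between tissues held under most settings. It was 2 for lung against liver and 3 for forestomach against liver when a probe had to be above background on all arrays of a tissue, which leaves out Adipoq, Plin1, Retn and Ucp1 and keeps Cfd and Cidec through lung alone. In the D0 arrays alone it was 2 for lung against liver and 1 for lung against forestomach, with 5 mice per tissue. Without the 3 arrays with the highest mean of the members, 8 pairs of members passed in forestomach in place of 18, an alternative chosen after seeing the data, as were leaving out the 3 arrays that stood out most for markers of other tissues and every alternative for the named genes of the lists. Mouse number as a replicate block changed no call between tissues (Cidec, forestomach against liver, limma adjusted p = 0.00123). Mouse numbers are not shared between dose groups, so the dose comparisons were blocked by slide, which in lung and forestomach held 1 mouse of each dose, and 0 members were called. The differences of Adipoq, Plin1, Retn and Ucp1 from liver depend on how background is treated and rest on the bounds given above. Under other settings Plin1 reached 2.74 for lung against liver and 2.07 for forestomach against liver, in place of 0.84 and 0.64. With processed signals Ucp1 was called for forestomach against liver (1.75, limma adjusted p = 0.00035) and for lung against forestomach (-1.21, 0.0123). The mean of both Cidec probes lowered its differences by more than 1.5 times (given above). Without a filter Plin1 missed between forestomach and liver (limma adjusted p = 0.0555). No dose comparison called a member under any setting run. Over all probes the liver slope count of 62 became 117 with processed signals, 171 with the filter on all arrays, 141 with a variance trend, 681 with slide as a block (95 in place of 0 in lung) and 0 to 240 when a mouse was left out, the cause of which was not tested. Of values that passed in neither setting, 22 changed sign under another setting and 78 when a mouse was left out.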

Other observations

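In forestomach the heat-making genes were highest on different arrays. Cox8b (5.34), Slc36a2 (3.35) and Prdm16 (4.06) were highest in mouse 5, the array highest for Ucp1, and Kcnk3 in mouse 15 (3.43) and then mouse 5 (3.33). Cidea, a droplet protein of brown fat that is also made in skin glands, read 3.86 to 7.02 on all 20 forestomach arrays and 1.17 to 4.42 on the lung arrays, and Ucp1 passed background on 5 and 3 of them. In forestomach Fabp3 ran from -2.15 in mouse 11 to 4.06 in mouse 7, and Cox7a1 from -2.02 in mouse 11 to 3.48 in mouse 9, with both lowest in a mouse that was among the 3 highest for Adipoq (3.47). In lung Fabp3 ran from -1.29 to 1.99 and Cox7a1 from -0.37 to 2.87, where mouse 1 was highest for Cox7a1 and for Ucp1 (1.80).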
